A study of Mus musculus with 8 samples.

Results

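Respiratory complex I is the entry point of electrons from NADH into the mitochondrial electron transport chain. The members described here are 36 nuclear genes of its subunits, found among 18193 genes that have a probe set of their own on the array. They were chosen by symbol alone: Ndufa, Ndufb, Ndufc, Ndufs or Ndufv followed by a number, plus Ndufab1, with the Ndufaf assembly factors left out. Where a gene had several such probe sets, the one with the highest mean over all arrays stood for it. Complex I passes electrons from NADH along a chain of iron-sulfur clusters to ubiquinone and pumps protons across the inner mitochondrial membrane. It is built from modules: an N module that oxidizes NADH, a Q module that reduces ubiquinone, and proximal and distal membrane modules that pump protons. A few core subunits carry the redox chemistry, the accessory subunits surround them, and the core of the membrane arm is encoded by mitochondrial DNA. Neutrophils and their relatives are known to rely largely on glycolysis, and tumor-infiltrating myeloid suppressor cells can raise their use of mitochondrial respiration.

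RNA came from granulocytic myeloid-derived suppressor cells (Gr-MDSCs), immature neutrophil-like cells that restrain T cells. They were isolated by magnetic sorting of CD11b+ Ly6G+ Ly6Clow cells from prostate tumors of CPPSML mice, which were castrated and then fed an enzalutamide diet for 4 weeks. All mice carried PB-Cre+, in which the probasin promoter drives Cre in prostate epithelium, together with the alleles PtenL/L, p53L/L and Smad4L/L and the reporters mTmGL/+ and LSL-LucL/+, so that the deletions are directed at the epithelium and not at the sorted cells. The labels give an age of 12 to 16 weeks. Cells were exposed ex vivo for 6 h to DMSO (4 samples), to 0.1 µM Dactolisib, a PI3K and mTOR inhibitor (2 samples), or to 0.1 µM Dasatinib, a Src family tyrosine kinase inhibitor (2 samples), and the comparison asks how each drug changes transcript levels in these cells. Treatments were read from the sample titles, because the treatment field of both Dasatinib samples names Dactolisib. The sources do not tie replicates to separate animals or cultures. The p-values therefore measure the spread between these samples alone, part of which may be technical, and the number of arrays limits the precision.

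Values are log2 signals as deposited. The 8 arrays fell into 3 sets that cross the treatments. Dactolisib 1 belonged to set A beside DMSO 2 and DMSO 4. Set B was made of DMSO 3 and the second array of each drug, and set C of DMSO 5 and Dasatinib 1. Granulocyte transcripts were bright on every array, where S100a8, S100a9 and Csf3r had log2 signals of at least 13.53, 13.69 and 11.62. This does not show that the cells were pure. On DMSO 5 and Dasatinib 1 the log2 of the summed signals was 16.00 and 15.88 for granulocyte markers. For epithelial markers it was 15.69 and 15.67. Transcripts of other cells were also present: Krt8, a keratin of simple epithelia, lay between 9.88 and 10.43 in set A, between 8.09 and 8.33 in set B, and at 13.31 and 13.37 in set C. The 3 sets are no groups of the study: they were cut, at a number of 3 fixed beforehand, from a clustering of the same probe sets that are tested. A block chosen in this way can make the spread look too small and the p-values within array sets too low, which was not tested. Each comparison is therefore given without a block, as the study's methods have it, and again with the array set as a block, called within array sets below. A gene is called when its limma p-value, adjusted by Benjamini and Hochberg over 30024 probe sets, is under 0.05.

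Of the 36 members 35 passed the filter on low signal. Ndufb4, of the distal module, had a log2 signal of 3.02 to 3.54 over the 8 arrays and was not tested. The 36 comprise 9 genes of the N module, 5 of the Q module, 8 of the proximal and 11 of the distal membrane module, the acyl carrier subunit Ndufab1, and the pair Ndufa4 and Ndufa4l2, which meet the rule by their symbols although Ndufa4 is now counted with cytochrome c oxidase. Ndufs6 and Ndufa11 are read by probe sets shared with other genes and were not analysed here.

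The promoters shown are those of the 3 members with the lowest p in the Dactolisib comparison and of Ndufa8, the other called subunit with a paired cysteine motif, because regulators of respiratory genes, such as NRF1 and the ETS factor GABPA, are known to act there. The members next in order of p, Ndufa13 and Ndufa4, held none of the motifs. RefSeq promoters, from 250 bases before to 50 after the start, were matched to 32 members. Each line below gives the 120 bases before the start in the direction of transcription (GRCm38.p6), with letters of a motif in capitals.

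Ndufc1, chr3:51408956-51409075, minus strand, no motif: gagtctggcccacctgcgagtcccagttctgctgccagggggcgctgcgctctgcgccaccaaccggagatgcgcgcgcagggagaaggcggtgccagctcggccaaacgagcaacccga

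Ndufb7, chr8:83566638-83566757, plus strand, ETS motif: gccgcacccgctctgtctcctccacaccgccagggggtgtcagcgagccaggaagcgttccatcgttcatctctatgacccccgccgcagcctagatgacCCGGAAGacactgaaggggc

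Ndufs5, chr4:123718187-123718306, minus strand, NRF1 motif: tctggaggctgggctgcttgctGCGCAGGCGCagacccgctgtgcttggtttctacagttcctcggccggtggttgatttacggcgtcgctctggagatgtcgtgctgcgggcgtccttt

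Ndufa8, chr2:36049339-36049458, minus strand, NRF1 motif: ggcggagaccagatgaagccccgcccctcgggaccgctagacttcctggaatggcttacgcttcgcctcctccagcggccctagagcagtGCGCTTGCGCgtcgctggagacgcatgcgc

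The 5 motifs were searched on both strands of the whole promoter, and no matches of different motifs overlapped in the members. Members that were tested on the array are set against the 11416 tested genes with a promoter. The NRF1 motif (GCGC, any base, then TGCGC) stood in 4 of 31 tested members (12.9%), against 9.8% of the tested genes. The YY1 motif (AA, any base, then ATGGCGG) stood in 3 (9.7%, against 3.13%). The ETS motif CCGGAAG was found in 4 (12.9%, against 17.31%), the E-box CACGTG in 2 (6.5%, against 11.01%), and the ERRA motif (T, any base, then AAGGTCA) in 0, against 1.04%. Over all 27025 genes with a promoter the shares were 5.19%, 1.59%, 9.93%, 8.09% and 1.43% in the same order, and over the 32 members the counts were 5, 3, 4, 2 and 1. Of 12 called members with a promoter 6 held any of the motifs, and of 19 members tested and not called 7 did. A match is a description of these letters only.

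Within array sets, 13 of 35 members were lower under Dactolisib than under DMSO and 0 were higher (limma, adjusted p under 0.05). Without Ndufa4, now counted with cytochrome c oxidase, and its paralog Ndufa4l2, 12 of 33 were called. Of all 14237 genes tested 4.66% were called lower and 2.24% higher. By unadjusted p under 0.05, 23 members were lower and 0 higher, against 15.1% and 9.17% of all genes. The fitted log2 difference lay below 0 for 33 of 35 members, with a median of -0.30, where the median over all genes tested was -0.0017. Dactolisib is compared here with DMSO 2, DMSO 3 and DMSO 4, since set C holds no Dactolisib array. Without Dactolisib 1, Dactolisib 2 or DMSO 3 the median over the members was -0.40, -0.23 and -0.23. Whether the calls hold without these arrays cannot be judged. In each of these fits 1 Dactolisib array alone entered the difference. The spread came from DMSO 2 and DMSO 4 alone, with 1 residual degree of freedom, so calls in these fits say nothing about stability and are not counted. In bulk RNA, fewer cells of a type and less RNA per cell cannot be told apart.

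The proximal membrane module held the most calls, 6 of 8, with a median log2 difference of -0.48. Ndufc1, a small membrane subunit, had a log2 signal of 7.84, 7.53, 7.87 and 8.92 on DMSO 2, 3, 4 and 5, of 7.26 and 6.80 on Dactolisib 1 and 2, and of 8.59 and 7.44 on Dasatinib 1 and 2. Both Dactolisib arrays lay below every DMSO array, while DMSO 5 and Dasatinib 1 were the highest. Within array sets Ndufc1 fell by 0.65 ± 0.08 (SE; limma adjusted p = 0.0105), the member with the lowest p, and fell by 36.5% on the linear scale. Its second tested probe set was also lower, with a log2 difference of -0.54.

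Ndufs5, a subunit with paired cysteine motifs that is folded in the intermembrane space, read 7.92, 7.77, 7.72 and 8.04 on the DMSO arrays, 7.22 and 7.07 under Dactolisib, and 7.90 and 7.58 under Dasatinib. The Dactolisib values stood apart from the other 6, which spanned 7.58 to 8.04. Ndufs5 fell by 0.64 ± 0.09 within array sets (limma adjusted p = 0.0146). Ndufa13, also known as GRIM-19 and needed for assembly of the complex, read 9.57, 9.49, 9.54 and 9.88 under DMSO, 9.05 and 8.94 under Dactolisib, and 9.83 and 9.45 under Dasatinib. Both Dactolisib arrays lay below the other 6 arrays, and it fell by 0.52 ± 0.08 (limma adjusted p = 0.0155).

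Ndufa8, a subunit of the same cysteine-motif type as Ndufs5, read 8.41, 7.98, 8.34 and 8.66 under DMSO, 7.93 and 7.34 under Dactolisib, and 8.37 and 7.91 under Dasatinib. Dactolisib 1 and Dasatinib 2 were close to each other although they belong to different sets, and within array sets Ndufa8 fell by 0.53 ± 0.09 under Dactolisib (limma adjusted p = 0.0194). Ndufa1, an X-linked membrane subunit whose probe set was the brightest of the members, read 10.25, 10.21, 10.22 and 11.08 under DMSO, 9.84 and 9.73 under Dactolisib, and 10.63 and 10.16 under Dasatinib. It fell by 0.44 ± 0.08 (limma adjusted p = 0.0231), and DMSO 5 stood far above the other 3 DMSO arrays. Ndufa3 was called as well, at -0.39 (limma adjusted p = 0.0416), but 1 of its 3 tested probe sets had a difference of 0.08. That probe set had a mean log2 signal of 4.42, where the others had 10.02 and 9.88. Ndufc2 and Ndufa10 were not called, at -0.36 and -0.19.

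**Figure D1:**
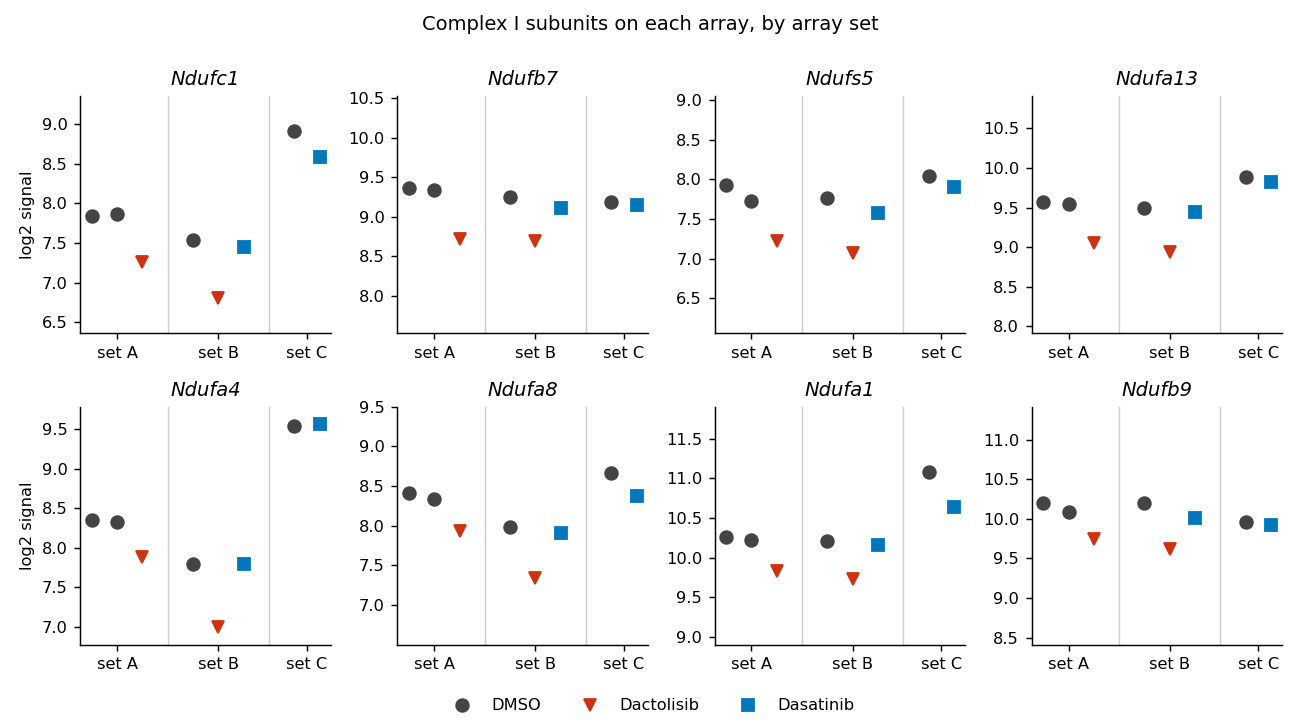
Log2 signal (vertical axis) of the 8 members with the lowest p for Dactolisib within array sets, with the 8 arrays ordered by array set along the horizontal axis (circles DMSO, triangles Dactolisib, squares Dasatinib; each point is 1 array). In set A and set B the Dactolisib array lies below every other array of its set, for Ndufc1 at 7.26 and 6.80, and set C holds no Dactolisib array.

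In the distal membrane module 3 of 10 tested members were called, with a median of -0.31. Ndufb7, another subunit with the paired cysteine motif, read 9.36, 9.25, 9.34 and 9.19 on DMSO 2, 3, 4 and 5, 8.72 and 8.70 under Dactolisib, and 9.15 and 9.12 under Dasatinib. This gene hardly differed between the array sets, and the Dactolisib values lay clear of all others. It fell by 0.60 ± 0.08 within array sets (limma adjusted p = 0.0116), and its second probe set had a log2 difference of -0.65. Ndufb9, an LYR-motif protein that binds the acyl carrier subunit, read 10.20, 10.21, 10.09 and 9.96 under DMSO, 9.75 and 9.62 under Dactolisib, and 9.92 and 10.01 under Dasatinib. It fell by 0.48 ± 0.09 (limma adjusted p = 0.0247). Its probe sets disagreed, with 1 of 3 at a difference of 0.06, and the mean of its probe sets (-0.27) was not called. The probe set at 0.06 had a mean log2 signal of 5.44. The others had 9.97 and 9.63, and the latter was also called, at -0.39 (limma adjusted p = 0.0319). Ndufb8 was the other call, at -0.44 (limma adjusted p = 0.0277). Ndufb10, the fourth subunit with the cysteine motif, read 7.09, 6.50, 6.97 and 7.66 under DMSO, 6.76 and 6.18 under Dactolisib, and 7.37 and 6.52 under Dasatinib. Its spread between sets was wider than its difference within them, -0.29 ± 0.08, which was not called (limma adjusted p = 0.0810). The remaining 6 tested genes of the module ranged from -0.35 (Ndufb5) to -0.12 (Ndufb11). One of them, Ndufb6, was not called by the probe set that stood for it, at -0.31 (limma adjusted p = 0.0759). Its other tested probe set was called, at -0.43 (limma adjusted p = 0.0233).

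The Q module had 3 calls among 5 members and a median of -0.41. Ndufs7, which carries the last iron-sulfur cluster before ubiquinone, read 8.62, 8.61, 8.49 and 8.47 under DMSO, 8.22 and 8.09 under Dactolisib, and 8.59 and 8.46 under Dasatinib. It was the only core subunit called of 6 measured, and it fell by 0.41 ± 0.09 (limma adjusted p = 0.0398). The accessory subunits Ndufa5 and Ndufa9 were the other calls, at -0.45 ± 0.08 and -0.47 ± 0.10 (limma adjusted p = 0.0262 and 0.0379). Ndufs3, a core subunit, read 7.94, 7.93, 7.90 and 8.30 under DMSO, 7.70 and 7.73 under Dactolisib, and 8.41 and 7.80 under Dasatinib. Its Dactolisib values were the lowest of the 8, but the difference of -0.22 ± 0.08 was not called (limma adjusted p = 0.141). Ndufs8, a core subunit with iron-sulfur clusters, read 10.25, 9.43, 10.27 and 9.63 under DMSO, 10.06 and 9.15 under Dactolisib, and 9.97 and 9.31 under Dasatinib. Its values grouped by array set, with set A highest and set B lowest, and its difference was -0.23 ± 0.08 (limma adjusted p = 0.123).

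None of the 9 N module members was called by the probe set that stood for it, and their median was -0.17. By unadjusted p under 0.05 in limma 2 were lower, Ndufa7 (-0.30 ± 0.08, adjusted p = 0.0662) and Ndufs4 (-0.28 ± 0.09, adjusted p = 0.103), the latter an accessory subunit whose loss causes a Leigh-like disease in mice. Another tested probe set of Ndufa7 was called, at -0.38 (limma adjusted p = 0.0339). The probe sets of Ndufa12 ran from -0.29 to -0.10, those of Ndufv1 from -0.26 to -0.16 and those of Ndufv2 from -0.16 to -0.03, and none of these was called. Ndufv1, which holds the NADH site and the flavin, read 7.99, 7.93, 7.88 and 8.44 under DMSO, 7.81 and 7.72 under Dactolisib, and 8.30 and 7.90 under Dasatinib. Ndufv2, an iron-sulfur subunit, read 8.84, 8.79, 8.72 and 8.92 under DMSO, 8.67 and 8.58 under Dactolisib, and 8.97 and 8.79 under Dasatinib. For both genes the Dactolisib arrays were below all DMSO arrays by small margins, with differences of -0.16 ± 0.08 and -0.15 ± 0.08 (limma adjusted p = 0.294 and 0.324). Ndufs1, the largest iron-sulfur subunit, read 7.92, 7.95, 7.83 and 7.67 under DMSO, 7.82 and 7.62 under Dactolisib, and 7.74 and 7.82 under Dasatinib. Its groups overlapped, and its difference was -0.17 ± 0.09 (limma adjusted p = 0.313). The 95% intervals of Ndufv1 (-0.35 to 0.03) and Ndufs1 (-0.39 to 0.04) reach close to the difference of Ndufa3. Whether the modules differ in their response was not tested.

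Ndufab1, the acyl carrier protein, which also serves mitochondrial fatty acid synthesis, read 8.00, 7.78, 8.06 and 9.01 under DMSO, 7.84 and 7.62 under Dactolisib, and 9.07 and 7.82 under Dasatinib. The values of set C were more than 0.9 above the rest, and the difference within array sets was -0.18 ± 0.08 (limma adjusted p = 0.215). Ndufa4 read 8.36, 7.80, 8.33 and 9.54 under DMSO, 7.88 and 7.003 under Dactolisib, and 9.56 and 7.80 under Dasatinib. It fell by 0.61 ± 0.10 under Dactolisib (limma adjusted p = 0.0189), and the Dasatinib arrays lay within 0.02 of the DMSO array of their own set. Its paralog Ndufa4l2, known as a target of hypoxia signaling, read 6.26, 5.66, 6.02 and 5.75 under DMSO, 5.95 and 6.27 under Dactolisib, and 5.68 and 5.83 under Dasatinib. Ndufa4l2 and Ndufa6 (0.08 ± 0.08) were the members with a difference above 0, and that of Ndufa4l2, 0.16 ± 0.17, was not shared by both Dactolisib arrays: it was -0.19 without Dactolisib 2 or without DMSO 3, and 0.61 without Dactolisib 1.

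**Figure D2:**
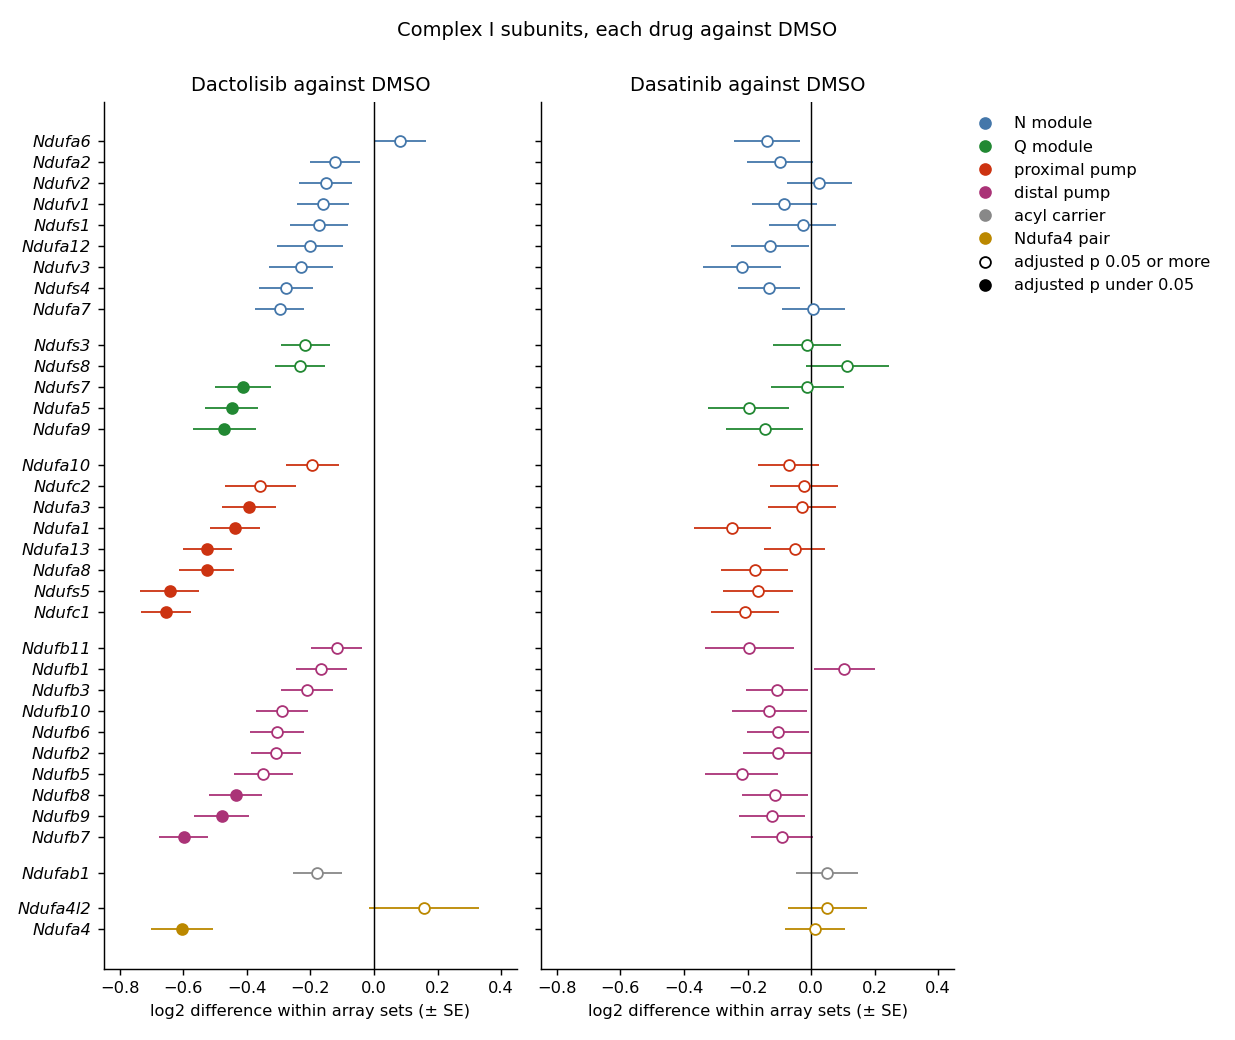
Log2 difference from DMSO within array sets (horizontal axis, ± SE from limma) of the 35 tested members under Dactolisib (left) and Dasatinib (right), ordered by module. Filled points have an adjusted p under 0.05: 13 under Dactolisib, from -0.65 for Ndufc1 to -0.39 for Ndufa3, and 0 under Dasatinib.

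Each drug array was also set against the DMSO arrays of its own set. On both Dactolisib arrays 33 of 35 members were below them, where 35.4% of all genes were, and only Ndufa6 was above on both. For 29 members both gaps exceeded the difference between DMSO 2 and DMSO 4 of set A, against 21.3% of all genes. The median over the members was -0.23 on Dactolisib 1 and -0.40 on Dactolisib 2, and the medians of the 4 modules ran from -0.11 (N) to -0.42 (proximal) on the first array and from -0.26 to -0.56 on the second. On the Dasatinib arrays the medians were -0.14 and -0.07, with 18 members below on both (22.8% of all genes) and 4 above on both (21.9%). For 8 members both Dasatinib gaps exceeded the difference between DMSO 2 and DMSO 4, against 8.23% of all genes. Pooled over sets, both Dasatinib arrays were below all DMSO arrays in 2 members (2.47% of all genes) and above them in 1 (1.66%). Within array sets the 2 comparisons share DMSO 3, and without the block they share all DMSO arrays.

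**Figure D3:**
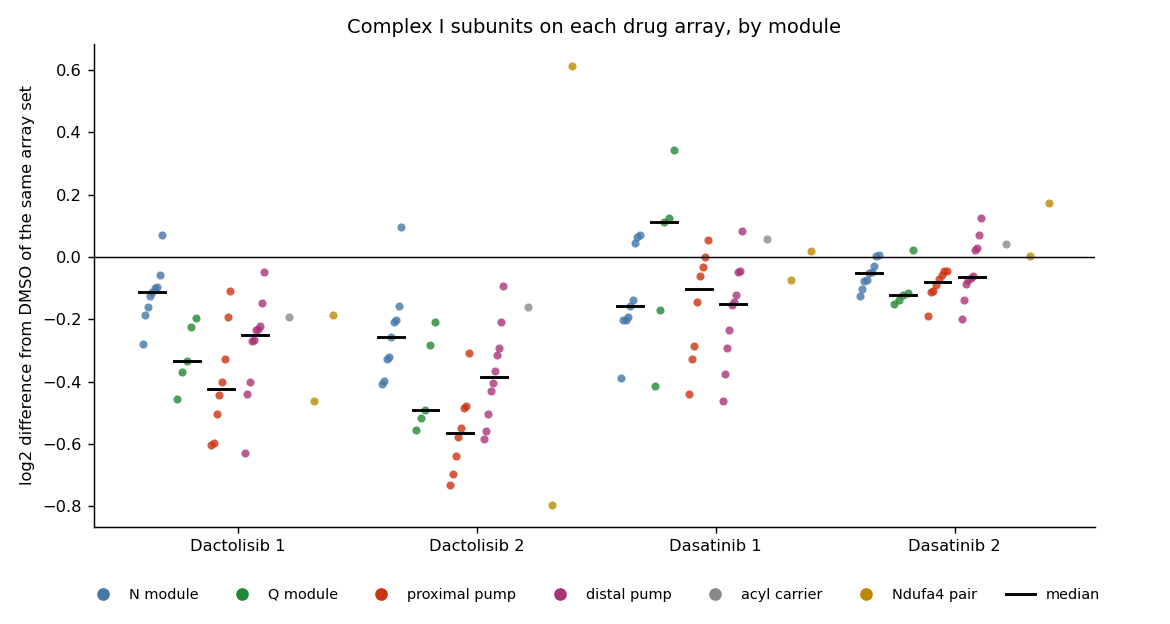
Log2 difference (vertical axis) of each tested member from the DMSO arrays of the same array set, on the 4 drug arrays, colored by module; each point is 1 gene and black bars are medians of modules with more than 2 members. On Dactolisib 1 and 2 nearly all points lie below 0, with proximal module medians of -0.42 and -0.56, and on Dasatinib 1 and 2 these medians were -0.10 and -0.08.

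Without the block limma called 0 members for Dactolisib, as it called 0 of the 14237 genes. By unadjusted p under 0.05, 10 members were lower and 0 higher (3.72% and 2.73% of all genes). The methods' t-test, adjusted here by Benjamini and Hochberg, called 0 members and 0 of the 14237 genes. The study's methods set their threshold on unadjusted p, so these counts do not repeat its gene lists. The lowest limma p-values belonged to Ndufb7 (-0.58 ± 0.10), Ndufs5 (-0.72 ± 0.13) and Ndufa13 (-0.63 ± 0.14), all with an adjusted p of 0.775. In 22 of 35 members both Dactolisib arrays were below all 4 DMSO arrays, which held for 10.8% of all genes. The median over the members was -0.43. In the same comparison 19 of 20 epithelial markers were below 0, with a median of -1.21, as were 13 of 14 fibroblast markers, with a median of -0.41, and 0 of either list were called. Their part in the result was not tested.

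Under Dasatinib 0 members were called by limma within array sets or without the block, and 0 had an unadjusted p under 0.05 in either comparison or by the methods' t-test. By unadjusted p, 2.1% of all genes were lower and 1.86% higher within array sets, where the values without the block were 0.162% and 0.14%. The lowest p-values within array sets were those of Ndufa1 (-0.25 ± 0.12), Ndufc1 (-0.21 ± 0.11) and Ndufb5 (-0.22 ± 0.11), each with an adjusted p of 0.850. The 95% interval for Ndufa1, -0.54 to 0.04, still contains the difference seen under Dactolisib, whereas that for Ndufb7, -0.32 to 0.14, does not reach -0.60. Such a reading leaves out the error of the Dactolisib differences and is no test between the drugs. In the direct test within array sets Ndufb7 was not called (-0.48, limma adjusted p = 0.120). Without the block Ndufb7 (-0.16 ± 0.11), Ndufb9 (-0.15 ± 0.12) and Ndufv3 (-0.17 ± 0.15) came first, with an adjusted p of 1.0. Ndufb5 read 7.99, 7.82, 7.92 and 9.03 under DMSO, 7.72 and 7.31 under Dactolisib, and 8.65 and 7.76 under Dasatinib. Ndufv3, an accessory subunit beside the NADH site, read 9.08, 8.91, 8.94 and 9.30, then 8.91 and 8.51, then 8.91 and 8.87 in the same order. For both genes the larger Dasatinib gap was in set C, where Dasatinib 1 lay 0.38 and 0.39 below DMSO 5. Within array sets 28 of 35 members were below 0 under Dasatinib, against 6766 of all 14237 genes. So were 32 of 33 tested nuclear subunits of complexes III to V, with a median of -0.11. Without the block 20 of 35 members were below 0, against 7061 of 14237 genes. The median over the members was -0.10 within array sets and -0.02 without the block, where it ran from -0.28 without Dasatinib 1 to 0.15 without Dasatinib 2. Within array sets 13 of 14 fibroblast markers were below 0 under Dasatinib, with a median of -0.49, and 9 were lower by unadjusted p in limma while 0 were called. Their part in the result was not tested.

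The test of Dactolisib against Dasatinib itself, on all 8 arrays, called 0 members in limma with or without the block. Within array sets 15 members were lower under Dactolisib and 0 higher by unadjusted p under 0.05, against 9.78% and 5.07% of all genes, and without the block 5 and 0, against 2.4% and 1.44%. The methods' t-test, again with adjusted p, called 0 members and 0 of the 14237 genes. Ndufa4 had the lowest limma p within array sets, with a difference of -0.68 ± 0.12 (95% interval -0.96 to -0.40, limma adjusted p = 0.0922). Ndufa13, Ndufb7, Ndufc1 and Ndufs5 followed at -0.48, -0.48, -0.51 and -0.49 (limma adjusted p from 0.111 to 0.138). Ndufa1 differed by -0.26 ± 0.13, with an interval of -0.56 to 0.04, which includes 0. The median over the members was -0.25 within array sets and -0.42 without the block, where it ran from -0.65 without Dasatinib 2 to -0.18 without Dasatinib 1. No single member thus differed between the drugs at an adjusted p under 0.05, which does not show that the drugs act alike.

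The members varied strongly among themselves between array sets. On DMSO 5 of set C, 27 of 35 members were above the mean of DMSO 2 and DMSO 4 of set A, with a median gap of 0.37 where all genes had -0.08. Ndufa5, Ndufc2, Ndufa12 and Ndufa4 had the largest gaps, 1.87, 1.55, 1.34 and 1.20. Ndufb7, Ndufb9, Ndufa7 and Ndufs7 lay between -0.18 and -0.09, and Ndufs8 was lowest, at -0.63. The epithelial markers moved with the sets as well: the median deviation of the 20 tested from the DMSO mean was 2.08 and 2.20 on DMSO 5 and Dasatinib 1, and -2.23, -2.28 and -1.96 on DMSO 3, Dactolisib 2 and Dasatinib 2. The part of other cells in these gaps was not tested.

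Markers of the cells in the sample were also followed within array sets under Dactolisib, where 4.66% of all genes were called lower and 2.24% higher. Among granulocyte markers 2 of 17 were called lower, Mmp9 (-0.62) and Cxcr2 (-0.55), with a list median of -0.06. Of 18 monocyte and macrophage markers 3 were lower, Cx3cr1 (-0.75), C1qc (-0.44) and C1qa (-0.35), with a median of -0.14. Of 20 epithelial markers 2 were lower, Cldn4 (-0.48) and Cdh1 (-0.33), with a median of -0.12. The log2 of the summed linear signals of the granulocyte list, in which the brightest genes weigh most, was 16.00 to 16.31 under DMSO, 16.11 and 16.25 under Dactolisib, and 15.88 and 16.18 under Dasatinib. That of the monocyte and macrophage list was 13.72 to 13.98, 13.77 and 13.89, and 13.91 and 14.02, and that of the epithelial list 11.25 to 15.69, 11.12 and 13.22, and 11.40 and 15.67. The median deviation of the granulocyte list from the DMSO mean was -0.43 on DMSO 5 and -0.39 on Dasatinib 1, and 0.04 to 0.18 on the other arrays. The defining markers of all 3 lists were well above 0 on every array, the lowest being Epcam at 6.79 on DMSO 3. The part of changed cell shares in the results was not tested.

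Genes around the members in the pathway were read from lists written from general knowledge, and their counts stand beside the same 4.66% and 2.24% of all genes. Of 33 tested nuclear subunits of complexes III to V, 5 were called lower within array sets under Dactolisib and 0 higher, with 32 below 0 and a median of -0.24. Uqcr11, of cytochrome bc1, fell by 0.86 ± 0.08, Uqcrq by 0.46 ± 0.08 and Uqcrc1 by 0.43 ± 0.08. Of 18 tested complex I assembly factors 3 were called, with a median of -0.17: Ndufaf1, Ndufaf4 and Ndufaf3 fell by 0.60 ± 0.10, 0.41 ± 0.08 and 0.39 ± 0.09 (limma adjusted p = 0.0219, 0.0273 and 0.0484). Of 12 regulators of respiratory gene transcription 2 were called lower, Tfam, which packages and transcribes mitochondrial DNA, at -0.52 ± 0.08 (limma adjusted p = 0.0191), and Gabpb2, a partner of GABPA, at -0.39 ± 0.09 (limma adjusted p = 0.0490). Tfam read 5.63, 5.41, 5.55 and 6.79 under DMSO, 5.002 and 4.99 under Dactolisib, and 6.80 and 5.48 under Dasatinib, so both Dactolisib arrays were the lowest of the 8.

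Other routes into the ubiquinone pool were read as well. Of 11 other enzymes that reduce ubiquinone Sqor, a sulfide oxidizer, was called at -0.38 ± 0.08 (limma adjusted p = 0.0346), and the list median was -0.12. Of 11 genes of coenzyme Q synthesis none was called lower, and Coq8a, an atypical kinase of that pathway, rose by 0.53 ± 0.09 (limma adjusted p = 0.0204). ND5 was the one subunit encoded by mitochondrial DNA that was tested. It read 11.65, 10.10, 11.40 and 12.72 under DMSO, 11.74 and 10.77 under Dactolisib, and 12.75 and 10.48 under Dasatinib. Within array sets its difference under Dactolisib was 0.41 ± 0.13 (limma adjusted p = 0.107), on the other side of 0 from 33 of the 35 nuclear members and not called. Without the block the direction turned, with a difference of -0.21 ± 0.70.

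**Figure D4:**
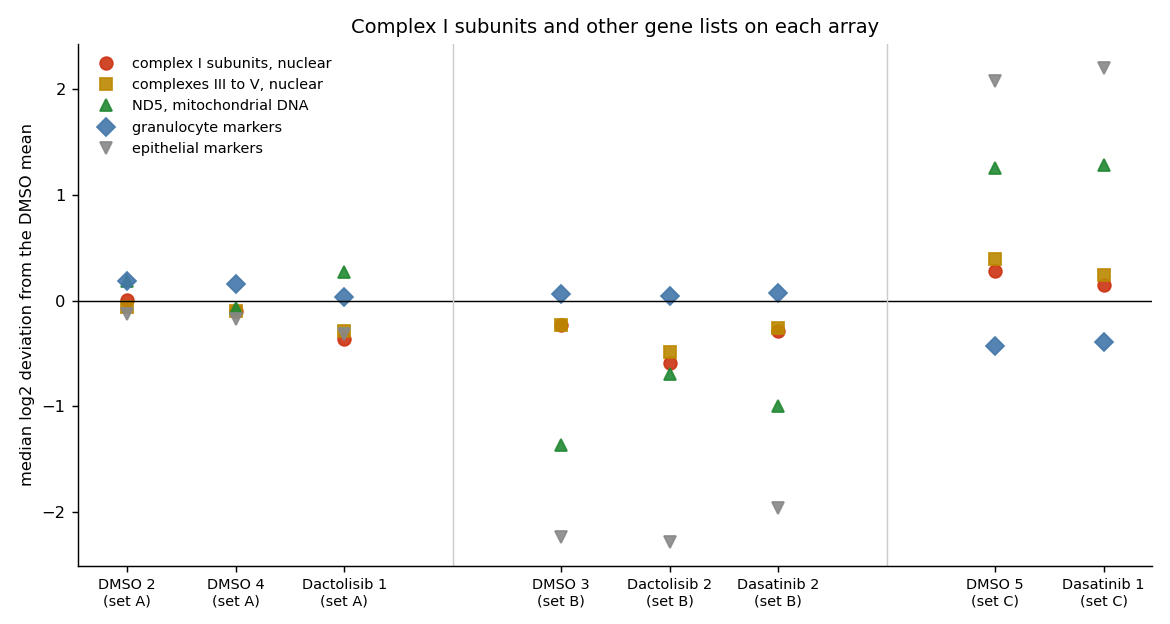
Median log2 deviation from the mean of the 4 DMSO arrays (vertical axis) of the complex I members and of other gene lists for the 8 arrays in order of array set; ND5 is a single gene. The members lie at -0.36 and -0.59 on the Dactolisib arrays, and the epithelial markers follow the sets, with 2.08 and 2.20 in set C.

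Where a member had more than 1 tested probe set, these could be compared within array sets under Dactolisib. In 15 of 19 such members all probe sets lay on the same side of 0, with a median span of 0.12 between the lowest and the highest. The exceptions were Ndufa3, Ndufb9, Ndufa10 and Ndufs8, and the widest span was 0.54, for Ndufb9. Over all 71 tested probe sets of the members 65 were below 0 and 20 were called lower, where 50.8% and 4.5% of all 24899 tested probe sets of a single gene were. Counting a gene by any of its probe sets gave 15 called members of 35, against 6.14% of all genes.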

How the data were processed

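Biotin-labeled RNA of Gr-MDSCs was hybridized to Affymetrix mouse arrays. Deposited were log2 signals of 45101 probe sets, which the authors had already normalized and which needed no further scaling, with array medians from 4.82 to 4.87. For the signals, MAS5 stands in the submitters' notes and the oligo package in the study's methods. For the RNA, the labels give Trizol and the methods RNeasy. The platform annotation gave 1 gene to 34945 probe sets, several to 932 and none to 9160, and 64 probe sets were controls. The 30024 probe sets in the upper 66.7% of the others by mean signal were tested (14237 genes). The array sets come from hierarchical clustering (average linkage, distance 1 minus Pearson correlation over the probe sets tested).

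Fits used the 6 arrays of a drug and DMSO, or all 8 arrays for 1 drug against the other. They were made in limma 3.58.1 (R 4.3.3) with Benjamini-Hochberg adjustment (threshold 0.05), without a block and with the array set as a block. Standard errors and 95% intervals are those of limma. The members, modules, lists, array sets and rules were chosen with earlier results of these data known. Any member could be named, and values on every array are given for the 8 with the lowest p for Dactolisib within array sets, the 3 with the lowest p for Dasatinib, core and cysteine-motif subunits, Ndufab1, Ndufa4, Ndufa4l2 and the brightest and dimmest probe sets. Alternatives were quantile normalization, 32 added before log2, other filters, priors, probe sets and samples, the methods' t-test, the replicate block and each array left out. The calculation was tested on simulated data.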

Additional observations from a re-analysis of the deposited data

Results flagged for a closer look

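In 5 of 35 tested members 1 DMSO array stood far from the other 3, by the gap to its nearest neighbor divided by the range, and chance alone marks about 1 in 20 groups. The same measure marked 13.19% of all 14237 genes tested. The array was DMSO 5 of set C each time, and it was the highest, as in 5.72% of all genes. Ndufa1 read 11.08 on DMSO 5 and 10.21 to 10.25 on the others, and Ndufb5 read 9.03 against 7.82 to 7.99. Ndufb6 read 9.33 against 8.79 to 8.87, Ndufs3 read 8.30 against 7.90 to 7.94, and Ndufs4 read 7.72 against 7.35 to 7.37. Within array sets DMSO 5 does not enter the Dactolisib difference, so leaving it out gives the same fit by design and tests nothing.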

How the results depend on the processing

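For Dactolisib against DMSO the count of members called was 0 with no block and 13 once the array set was a block. In the latter fit it was 22 with 32 added before log2 (13 of the reported calls and 9 others), 20 in the upper 33.3% of probe sets (12 and 8) and 21 under the trended, robust prior (13 and 8), where the share of all genes called lower was 9.81%, 16.1% and 9.65% in place of 4.66%. It was 12 under quantile normalization, 10 without a filter, 11 when probe sets of a gene were averaged and 10 with all 8 arrays in the fit, with 3.62%, 2.3%, 4.63% and 2.6% of all genes lower. Calls lost there were Ndufa9 under quantile normalization, Ndufa3, Ndufa9 and Ndufs7 without a filter, Ndufa3, Ndufa5 and Ndufb9 with averaged probe sets, and Ndufa3, Ndufa5 and Ndufs7 with all arrays. Leaving out DMSO 5 repeats the reported fit by design, since it is the only array of set C there. The fits without DMSO 2, DMSO 3, DMSO 4, Dactolisib 1 or Dactolisib 2 each left 1 residual degree of freedom. Calls in these fits are not counted, so whether the calls hold without any of these arrays cannot be judged. With any 1 array left out the median ran from -0.40 to -0.23. For Ndufa4l2 the sign turned to -0.19 without Dactolisib 2 or DMSO 3, and the value was 0.61 without Dactolisib 1. For Dactolisib against Dasatinib within array sets 3 members were called with 32 added, 1 in the upper 33.3% and 3 under the trended, robust prior (with 97 of 14237, 87 of 8174 and 118 of 14237 genes lower in place of 0). The median of that comparison was -0.18 under quantile normalization, and it ran from -0.30 to -0.17 with 1 array left out. The cause of these changes was not tested. With the replicate number as a replicate block, which only the comparison of the drugs allows (2 pairs), 0 members and 0 of 14237 genes were called in limma. The median over the members was -0.42, as without it. Such pairs share only a number. Dasatinib against DMSO had 0 members called under the alternatives of normalization, offset, filter, prior, probe sets, test and joint fit, and 0 of all genes were called there as well. Calls in fits that rest on 1 Dasatinib array are not counted. With 1 array left out the median over the members ran from -0.14 to -0.07 within array sets. Within array sets 2 residual degrees of freedom were left for a drug against DMSO and 3 for 1 drug against the other, which limits the precision of every call.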
